A study of Homo sapiens with 6 samples.

Results

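The NF-κB transcription factor subunits and genes grouped as their inhibitors were examined in MDA-MB-231 cells after knockdown of the zinc finger protein ZNF148. A set of 10 genes was taken by symbol. The 5 subunits were NFKB1, NFKB2, REL, RELA and RELB. The other 5, grouped here as feedback inhibitors, were NFKBIA, NFKBIB, NFKBIE, TNFAIP3 and BIRC3. This grouping is a label, and feedback on these genes was not measured. The 10 genes were found in 11 of the 24108 rows of the expression table. All 11 passed the filter on low values, as did 11777 rows in all. RELB had 2 rows. BIRC3 had no row of its own and was listed in 1 row joined with its neighbour and paralog BIRC2, so the value of that row cannot be assigned to either gene. MDA-MB-231 is a widely used basal, triple-negative line of human breast cancer cells. All 6 RNA-seq samples were lentivirally transduced for 48 h and then selected for 24 h in 0.5 µg/ml puromycin. The 3 shCtr samples received a short hairpin against luciferase and the 3 shZNF148 samples a single hairpin against ZNF148. With 1 hairpin on each side, a response to ZNF148 loss and a response to that hairpin or its virus cannot be told apart.

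NF-κB proteins bind DNA as dimers. In the canonical arm, IκB proteins hold dimers such as RELA with p50 (made from the NFKB1 product p105) in the cytoplasm until the IKK kinases mark the IκB for destruction. In the non-canonical arm, the kinase NIK (MAP3K14) and IKKα (CHUK) trigger the processing of p100, the NFKB2 product, to p52, which pairs with RELB. NF-κB switches on its own inhibitors, among them IκBα (NFKBIA) and A20 (TNFAIP3), and so limits its own activity. Triple-negative breast cancer lines are known for constitutive NF-κB activity and for the cytokines that it drives.

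The targeted gene was reduced. ZNF148 was 3.72, 4.36 and 4.30 FPKM (fragments for each kilobase of transcript, relative to all fragments of a library) in the 3 shCtr samples and 0.914, 0.282 and 0.834 FPKM in the 3 shZNF148 samples. On log2(FPKM + 1), the scale of all fold changes given here, the difference was -1.63 with a standard error of 0.18 (limma, adjusted p = 0.00990 after Benjamini-Hochberg adjustment over all tested rows), and it did not pass when shCtr replicate 1 or 3 was left out (adjusted p = 0.0603 and 0.0568). Relative sequencing depth, read from the steps between low values, ran from 0.806 (shZNF148 replicate 3) to 1.13 times that of shCtr replicate 1. The absolute depth is unknown. All 6 basal mesenchymal markers were present, with a summed level of 3175 to 3288 FPKM in shCtr and 2633 to 2730 FPKM in shZNF148, and 3 of them (CD44, AXL and EGFR) fell. The part of this shift in the results below was not tested, and in bulk RNA fewer cells of a type and less RNA per cell cannot be told apart. Of 8 luminal or epithelial markers, only GATA3 and EPCAM reached 1 FPKM, and ESR1 was listed at 0 in every sample. These 8 included the basal keratins KRT5, also at 0 in every sample, and KRT14, at most 0.0701 FPKM. Of 6 leukocyte and endothelial markers, only CD14 reached 1 FPKM, in 1 sample. Over the table, 647 rows (5.49%) passed an adjusted p under 0.05 with a change of more than 1.5-fold, here termed called. Without shCtr replicate 1 that count was 29, without shCtr replicate 3 it was 47, and without shCtr replicate 2 and shZNF148 replicate 1 it was 251 and 311.

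Promoters of NF-κB genes often carry κB sites, the 10-base elements that NF-κB dimers bind, and matches to them are shown here because the feedback of NF-κB on its own genes is known to run through such sites. RefSeq promoter windows of GRCh38.p14, from 250 bases before to 50 bases after a transcript start, were matched for 8 of the 10 genes (13 windows). RELB and NFKBIE were not matched. A κB consensus match on either strand was found in 7 of the 8 genes, RELA being the exception. Among all genes with such windows, 7.09% had a match (1937 of 27305), and 5.91% of all windows did. One match per gene, the one nearest to a transcript start, is printed 5′ to 3′ on the strand of the gene, with the matched bases in capitals. The capitals extend over 11 bases where matches on both strands overlapped.
NFKB1 (chr4:102501300-102501329, plus strand, match from 49 bases before the start): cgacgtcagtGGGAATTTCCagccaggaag
NFKB2 (chr10:102395674-102395703, plus strand, 21 bases before the start): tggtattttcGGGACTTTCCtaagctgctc
REL (chr2:60881518-60881547, plus strand, 47 bases before the start): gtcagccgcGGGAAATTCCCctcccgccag
NFKBIA (chr14:35404811-35404840, minus strand, 81 bases before the start): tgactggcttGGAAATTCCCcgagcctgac
NFKBIB (chr19:38899932-38899961, plus strand, 28 bases before the start): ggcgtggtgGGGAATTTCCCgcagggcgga
TNFAIP3 (chr6:137867194-137867223, plus strand, 55 bases before the start): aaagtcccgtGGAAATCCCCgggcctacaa
BIRC3 (chr11:102317339-102317368, plus strand, 135 bases before the start): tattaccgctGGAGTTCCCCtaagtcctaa

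TNFAIP3 and BIRC3 each had a further match, 67 and 199 bases before the start. NFKB2 had 3 further matches in its windows, 107, 78 and 176 bases before the respective start. The C-rich word CCCTCCC, searched on both strands because ZNF148 is known to bind C-rich and G-rich DNA, was found in windows of 2 of the 8 genes, NFKB2 and REL, and in 29.4% of all genes. In REL, 1 of its 2 matches shared 2 bases with the κB match printed above. A match describes letters in a window, and binding was not analysed here.

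FPKM values are scaled to transcript length, so levels can be compared between genes. In shCtr the joined BIRC2 and BIRC3 row (mean 95.8 FPKM) and NFKBIA (90.6 FPKM) stood highest, followed by RELA (73.2 FPKM), NFKB2 (39.5 FPKM), NFKBIE (26.7 FPKM), NFKB1 (17.1 FPKM), NFKBIB (13.0 FPKM) and the higher RELB row (10.3 FPKM). TNFAIP3 (4.27 FPKM) and REL (3.52 FPKM) were lowest, apart from the lower RELB row (2.30 FPKM). Neighbours in this order did not overlap in their 3 shCtr values, except for the joined row with NFKBIA, TNFAIP3 with REL, and REL with the lower RELB row. In shZNF148, NFKBIA (112 FPKM) and the joined row (101 FPKM) changed places, as did REL (4.09 FPKM) and TNFAIP3 (3.58 FPKM), and in each of these pairs the 3 values overlapped. The other places were the same in both groups, although in shZNF148 NFKBIB also overlapped with the higher RELB row and TNFAIP3 with the lower one.

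**Figure D1:**
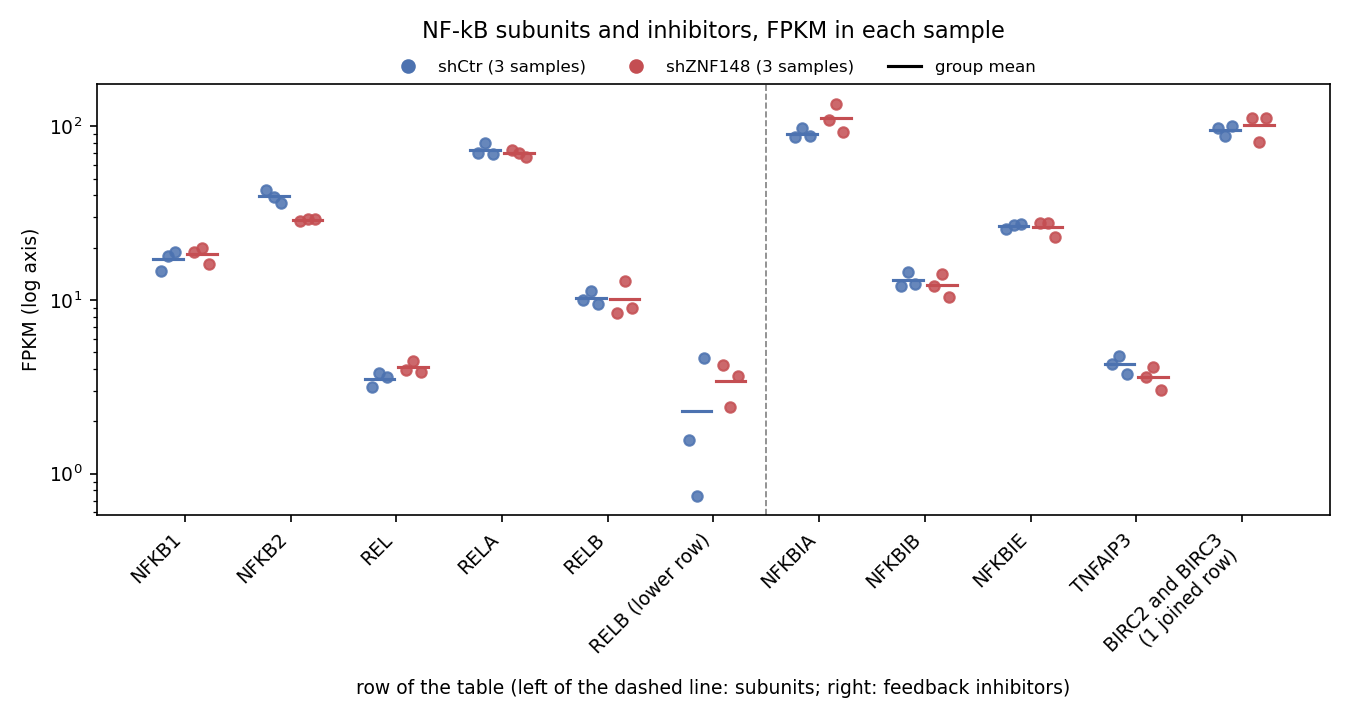
FPKM on a log axis for the 11 rows of the NF-κB subunits (left of the dashed line) and feedback inhibitors (right), with a point per sample, 3 shCtr samples in blue and 3 shZNF148 samples in red, and a line at each group mean. The points of the groups part in NFKB2, from 39.5 to 29.0 FPKM on average, and narrowly in REL, and overlap in the other 9 rows.

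Of the 11 rows, 0 were called, against 5.49% of all tested rows (1.83% higher and 3.66% lower in shZNF148), and 1 passed the adjusted p alone (limma), against 13.6% of all tested rows. That row was NFKB2, which was also the only member with an unadjusted p under 0.05, where 33.8% of all tested rows had one. The groups did not overlap in 2 of the 11 rows, NFKB2 and REL, against 41.0% of all tested rows. For 8 of the 11 rows the 95% interval of the change lay within 1.5-fold in both directions, against 8057 of all 11777 tested rows. The exceptions were NFKB2, NFKBIA and the lower RELB row. These bounds hold on log2(FPKM + 1), which makes changes of low rows such as TNFAIP3 and REL too small. With a pseudocount of 0.1 FPKM the log2 fold change of TNFAIP3 was -0.25 in place of -0.20, and that of REL 0.21 in place of 0.17. An exact two-sided permutation test of 3 samples against 3 cannot give a p below 0.1 and was not used to call single genes.

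Among the subunits, NFKB2 fell. NFKB2 encodes p100, which serves both as the precursor of p52 and as an IκB-like inhibitor. It was 43.0, 39.4 and 36.1 FPKM in shCtr and 28.6, 29.3 and 29.1 FPKM in shZNF148. Every shZNF148 sample lay below every shCtr sample, and the shZNF148 values lay closer together (29.0 ± 0.391 FPKM, SD, n = 3) than the shCtr values (39.5 ± 3.45 FPKM, SD, n = 3). The difference was -0.43 on the log2 scale (95% interval -0.61 to -0.24, standard error 0.08, limma adjusted p = 0.0228), which is 1.35-fold lower and under the 1.5-fold threshold. The adjusted p rose to 0.0912, 0.0680 and 0.0631 without shCtr replicates 1, 2 and 3 and to 0.0640 without shZNF148 replicate 1, while the log2 fold change stayed between -0.49 and -0.37.

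The other subunits did not pass. RELA, the main transactivating subunit of the canonical arm, was 70.0, 80.2 and 69.3 FPKM in shCtr and 72.7, 70.0 and 66.7 FPKM in shZNF148. The RELA groups overlapped, and the log2 fold change was -0.07 (95% interval -0.25 to 0.12, adjusted p = 0.583 from limma). NFKB1, which encodes p105 and p50, was 14.6, 17.9 and 18.9 FPKM in shCtr and 18.9, 19.9 and 16.1 FPKM in shZNF148. Its groups overlapped as well (log2 fold change 0.09, 95% interval -0.20 to 0.39), with shCtr replicate 1 the lowest of the 6 samples.

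REL, the c-Rel subunit best known from lymphocytes, was 3.15, 3.80 and 3.60 FPKM in shCtr and 3.94, 4.48 and 3.84 FPKM in shZNF148. Every shZNF148 value lay above every shCtr value, with the nearest at 3.84 and 3.80 FPKM, and the difference of 0.17 on the log2 scale did not pass (limma adjusted p = 0.287, standard error 0.10). RELB, the partner of p52, was given in its higher row as 10, 11.3 and 9.44 FPKM in shCtr and 8.43, 12.9 and 8.97 FPKM in shZNF148. The shZNF148 values of that row enclosed the shCtr values (log2 fold change -0.04, 95% interval -0.42 to 0.34). Its lower row ranged from 0.746 to 4.61 FPKM in shCtr alone, and its log2 fold change of 0.58 had an interval from -0.42 to 1.57. With both rows added together the log2 fold change of RELB was 0.10 (adjusted p = 0.555 from limma), opposite in sign to the higher row.

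None of the feedback inhibitors passed. NFKBIA encodes IκBα, the inhibitor that NF-κB resupplies fastest. It was 86.8, 97.4 and 87.8 FPKM in shCtr and 109, 135 and 92.7 FPKM in shZNF148, so that shZNF148 replicate 2 stood highest and shZNF148 replicate 3 lay within the shCtr range. NFKBIA thus differed by 0.29 on the log2 scale (95% interval -0.04 to 0.62, standard error 0.14) and did not pass (limma adjusted p = 0.186). Without shZNF148 replicate 2 it was 0.15 and without shZNF148 replicate 3 it was 0.42.

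NFKBIB, which encodes IκBβ, was 12.1, 14.4 and 12.4 FPKM in shCtr and 12.1, 14.1 and 10.4 FPKM in shZNF148. Its log2 fold change was -0.09 (95% interval -0.38 to 0.20). NFKBIE, which encodes IκBε, was 25.6, 27.1 and 27.4 FPKM in shCtr and 27.9, 27.8 and 23.1 FPKM in shZNF148. Its log2 fold change was -0.03 (95% interval -0.24 to 0.18). The sample with the lowest relative depth, shZNF148 replicate 3, gave the lowest of the 6 values in NFKBIB, NFKBIE, RELA and TNFAIP3. In the joined BIRC2 and BIRC3 row it gave the highest (112 FPKM). Its FPKM summed over the table was also the lowest, at 469594, where the shCtr samples had 497730 to 507312. The part of depth or of scaling in these values was not tested.

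TNFAIP3 encodes A20, an enzyme that edits ubiquitin chains and dampens signalling upstream of IKK. It was 4.29, 4.77 and 3.75 FPKM in shCtr and 3.62, 4.10 and 3.03 FPKM in shZNF148, with overlapping groups. TNFAIP3 differed by -0.20 on the log2 scale (95% interval -0.51 to 0.10, standard error 0.13) and did not pass (limma adjusted p = 0.303). The joined row of BIRC2 and BIRC3, which encode the ubiquitin ligases cIAP1 and cIAP2, was 98.2, 88.0 and 101 FPKM in shCtr and 111, 81.1 and 112 FPKM in shZNF148. The lowest and the highest of those 6 values both came from shZNF148, and the log2 fold change was 0.07 (95% interval -0.26 to 0.39).

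**Figure D2:**
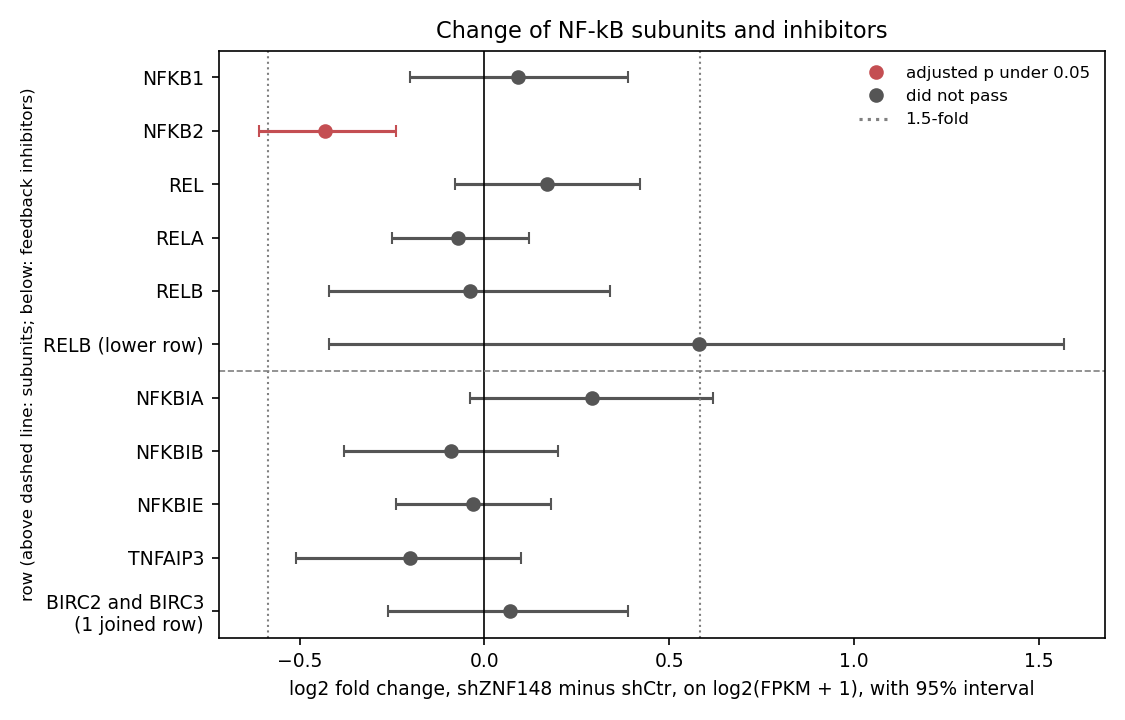
Log2 fold change of shZNF148 against shCtr on log2(FPKM + 1) for the 11 rows, with 95% intervals from limma and dotted lines at 1.5-fold. NFKB2 (-0.43) is the only row past an adjusted p of 0.05, and the intervals of 8 rows stay within the dotted lines. Of all 11777 tested rows, 8057 had an interval within 1.5-fold.

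Subunits and inhibitors were also set against each other as groups. With each gene given by its highest row, the 5 subunits had a median of -0.04 on the log2 scale (range -0.43 to 0.17) and the 5 inhibitors of -0.03 (range -0.20 to 0.29), beside 0.006 over all tested rows. The mean log2(FPKM + 1) of the inhibitors exceeded that of the subunits by 0.57, 0.51 and 0.55 in shCtr and by 0.68, 0.57 and 0.56 in shZNF148. The groups overlapped in this difference. Among the 5 inhibitors, BIRC3 entered these medians and means by the joined row with BIRC2 (95.8 FPKM in shCtr and 101 FPKM in shZNF148). That row cannot be assigned to BIRC3, so neither can its part in the excess of the inhibitors. These summaries are descriptions and were not tested.

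Proportions within single samples do not depend on how samples are scaled to each other. The FPKM of NFKBIA divided by that of RELA in the same sample was 1.24, 1.21 and 1.27 in shCtr and 1.5, 1.93 and 1.39 in shZNF148. Every ratio in shZNF148 lay above every ratio in shCtr, with a mean of 1.61 ± 0.287 against 1.24 ± 0.0261 (SD, n = 3 each). The ratio of NFKB2 to RELA was 0.614, 0.491 and 0.520 in shCtr and 0.393, 0.419 and 0.437 in shZNF148, lower in every shZNF148 sample. That of REL to RELA was 0.0450, 0.0473 and 0.0519 in shCtr and 0.0543, 0.0640 and 0.0575 in shZNF148, higher in every shZNF148 sample. For NFKB1, the higher RELB row, NFKBIB, NFKBIE, TNFAIP3 and the joined row the ratios to RELA overlapped between groups. Over all tested rows, 35.6% had ratios to RELA that did not overlap, so the 3 of 9 seen here are near the background. The ratio of NFKB2 to NFKB1, the precursors of p52 and p50, was 2.95, 2.19 and 1.91 in shCtr and 1.51, 1.47 and 1.81 in shZNF148. These groups did not overlap, as was the case for 22.3% of all tested rows in their ratio to NFKB1.

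**Figure D3:**
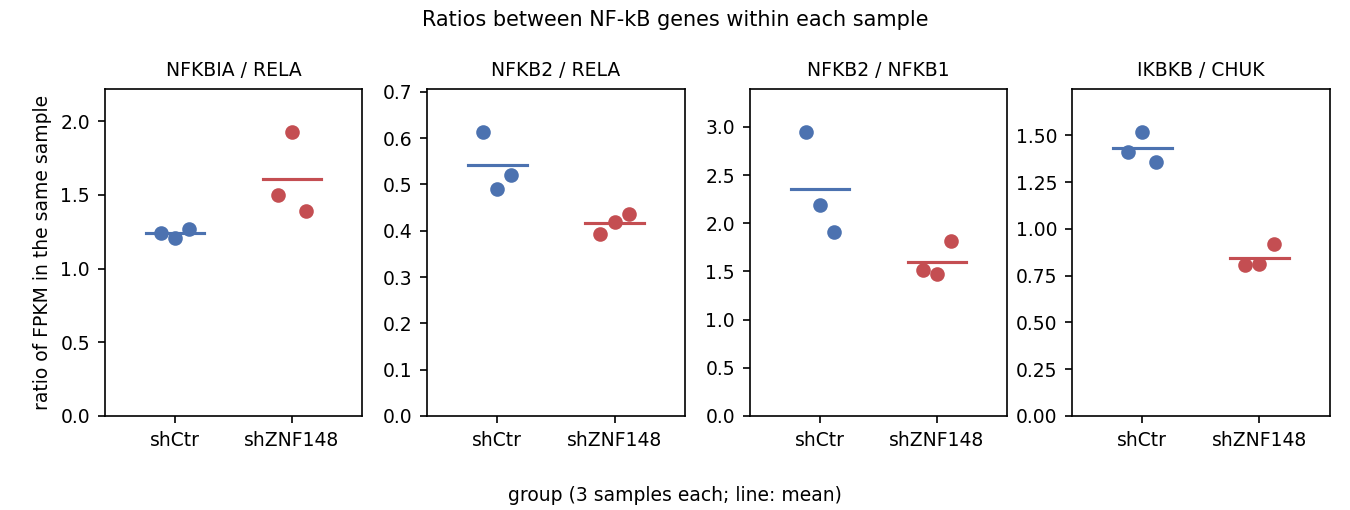
Ratio of the FPKM of 2 genes in the same sample, with a point for each of the 3 shCtr (blue) and 3 shZNF148 (red) samples, a line at the mean, and axes from 0. NFKBIA to RELA averaged 1.24 in shCtr and 1.61 in shZNF148, NFKB2 to RELA 0.542 and 0.416, NFKB2 to NFKB1 2.35 and 1.6, and IKBKB to CHUK 1.43 and 0.846, with no overlap between groups. These 4 were picked for display from 12 ratios, of which 6 did not overlap and 6 did. Of all tested rows, 35.6% had ratios to RELA that did not overlap, 22.3% ratios to NFKB1 and 33.3% ratios to CHUK.

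The list of the IKK complex and the kinases upstream of it held several genes past the adjusted p. Of 12 tested genes of the IKK complex and upstream kinases, 4 rose and 1 fell at an adjusted p under 0.05 (5.46% and 8.13% of all tested rows). The called genes numbered 2, both higher (16.7% of the list, where 1.83% of all tested rows were called higher). Within the IKK complex, IKBKB, the catalytic subunit IKKβ of the canonical arm, was 17.5, 17.3 and 17.2 FPKM in shCtr and 11.7, 9.61 and 13.5 FPKM in shZNF148. Every shZNF148 sample lay below the shCtr samples, and IKBKB fell by 0.55 on the log2 scale (limma adjusted p = 0.0317, standard error 0.12). CHUK, the catalytic subunit IKKα, was 12.5, 11.3 and 12.6 FPKM in shCtr and 14.5, 11.8 and 14.6 FPKM in shZNF148, and did not pass (log2 fold change 0.15, adjusted p = 0.329 from limma). The scaffold subunit IKBKG (NEMO) did not pass either (0.15, adjusted p = 0.389 from limma). The ratio of IKBKB to CHUK was between 1.36 and 1.52 in shCtr and between 0.805 and 0.921 in shZNF148, without overlap, where 33.3% of all tested rows had ratios to CHUK that did not overlap.

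MAP3K14, which encodes NIK, was 7.36, 8.77 and 8.02 FPKM in shCtr and 15.6, 14.1 and 11.6 FPKM in shZNF148. All shZNF148 samples were higher, and MAP3K14 rose by 0.70 on the log2 scale, or 1.63-fold (limma adjusted p = 0.0210, standard error 0.12). MAP3K8, the kinase TPL2 that p105 binds and holds inactive, was 5.68, 4.88 and 6.45 FPKM in shCtr and 8.83, 11.1 and 10.6 FPKM in shZNF148. All shZNF148 samples were again higher, and MAP3K8 rose by 0.75 (limma adjusted p = 0.0201, standard error 0.12). IKBKE, an IKK-related kinase of innate immune signalling, rose by 0.39 and MAP3K3 by 0.42 (limma adjusted p = 0.0217 for IKBKE, 0.0392 for MAP3K3), genes singled out after their values were seen. IKBKB, MAP3K14 and IKBKE lost their pass without any 1 of the 3 shCtr samples or without shZNF148 replicate 1, with adjusted p-values between 0.0545 and 0.114. MAP3K8 lost it without any 1 shCtr sample (0.0575 to 0.0886), and MAP3K3 without any 1 shCtr sample or shZNF148 replicate 1 or 3 (0.0591 to 0.128).

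Receptor adaptors and the ubiquitin machinery, which carry the signal from receptors to IKK, held 21 tested rows. Of these 3 rose, 0 fell and 0 were called. The 3 were 14.3% of the list, beside 13.6% of all tested rows, and 7 rows (33.3%) had an unadjusted p under 0.05, beside 33.8% of all tested rows. The 3, named after their values were seen, were MYD88 (0.54, adjusted p = 0.0384 from limma) and IRAK1 (joined with MIR718, 0.58, adjusted p = 0.0253 from limma), which serve Toll-like and interleukin-1 receptors, and the scaffold CARD10 (0.34, adjusted p = 0.0324 from limma). All 3 lost their pass without any 1 shCtr sample or without shZNF148 replicate 1, and CARD10 also without shZNF148 replicate 3 (adjusted p between 0.0538 and 0.130). TRAF3, the adaptor that keeps NIK low, did not pass (-0.03, adjusted p = 0.864 from limma). BIRC2, the other gene of the joined row, belongs to this list and has the value given above.

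Of 20 tested rows of other IκB proteins and negative regulators, 1 rose and 1 fell (10% against 13.6% of all tested rows), and 1 was called (5% against 5.49%). An unadjusted p under 0.05 was found for 10 of them (33.8% of all tested rows), and groups without overlap also for 10 (41.0% of all tested rows). PDLIM2, a ligase known to promote the destruction of nuclear RELA, was 9.61, 8.05 and 9.48 FPKM in shCtr and 5.12, 5.64 and 6.15 FPKM in shZNF148. All shZNF148 samples were lower, and PDLIM2 fell by 0.60 on the log2 scale (limma adjusted p = 0.0209, standard error 0.10). It lost its pass without shCtr replicate 1 (0.0940), shCtr replicate 3 (0.0889) or shZNF148 replicate 1 (0.0583). NKIRAS2, a Ras-like protein that binds IκB, rose by 0.51 (adjusted p = 0.0250 from limma), and lost its pass without any 1 shCtr sample or shZNF148 replicate 1 (0.0536 to 0.0940). It was named after its values were seen. BCL3 (-0.35, adjusted p = 0.109 from limma) and the deubiquitinase CYLD (-0.28, adjusted p = 0.0687 from limma) were lower in every shZNF148 sample without passing. NFKBIZ, joined with FAM55C in 1 row, also did not pass (-0.27, adjusted p = 0.329 from limma).

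Among known NF-κB target genes, the called ones were lower in shZNF148. Of 32 listed genes in 31 rows, 22 rows were tested. Of these, 8 fell and 1 rose (8.13% and 5.46% of all tested rows). The called rows numbered 6, all of them lower (3.66% of all tested rows were called lower). The tested targets had a median of -0.33 on the log2 scale, beside 0.006 over all tested rows. The list was written by hand with some of the decreases, those of IL1A and IL1B, already known, so its count is not independent evidence of a direction. The 9 untested rows averaged under 1 FPKM. They included TNF, which was listed at 0 in every sample.

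The called targets were cytokines, an adhesion receptor and a mitochondrial enzyme. IL6, an inflammatory cytokine, was 32.6, 28.1 and 28.4 FPKM in shCtr and 14, 12.5 and 12.2 FPKM in shZNF148. The IL6 groups did not overlap, and IL6 fell, with a difference of -1.14 on the log2 scale (limma adjusted p = 0.00475, standard error 0.09). ICAM1, the leukocyte adhesion receptor, was 128, 131 and 117 FPKM in shCtr and 65.1, 54.3 and 60.4 FPKM in shZNF148. It fell by 1.05 on the log2 scale (limma adjusted p = 0.00529, standard error 0.09), again with no overlap. IL6 and ICAM1 passed with any 1 sample left out.

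SOD2, the mitochondrial superoxide dismutase, was 59.0, 69.6 and 50.7 FPKM in shCtr and 35.3, 31.3 and 31.8 FPKM in shZNF148 (log2 fold change -0.84, adjusted p = 0.0150 from limma, and 0.0780 without shCtr replicate 1). CXCL8, the neutrophil chemokine listed under its older symbol IL8, was 110, 101 and 95 FPKM in shCtr and 51.2, 24.9 and 57.0 FPKM in shZNF148, lowest in shZNF148 replicate 2. CXCL8 fell by 1.27 (limma adjusted p = 0.0379, standard error 0.29), and it did not pass without any 1 shCtr sample or without shZNF148 replicate 1 (0.0649 to 0.128), nor with no filter on low values (0.0577). IL1A, in the higher of its 2 rows, differed by -1.65 and IL1B by -2.34 on the log2 scale (limma adjusted p = 0.0103 and 0.00955), and both fell in all shZNF148 samples. Without shCtr replicate 1 both had an adjusted p of 0.0603, and without shCtr replicate 3 that of IL1A was 0.0559.

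Targets outside the called set went in both directions. CCND1, the cell cycle gene cyclin D1, was the target that rose (0.58, adjusted p = 0.0169 from limma, and 0.0767 and 0.0729 without shCtr replicates 1 and 3). PLAU fell by 0.30 and GADD45B by 0.35 (adjusted p = 0.0313 and 0.0450 from limma), changes under 1.5-fold that did not pass without any 1 shCtr sample or in 2 further leave-outs each (0.0575 to 0.130). IRF1 was 7.76, 13.2 and 9.10 FPKM in shCtr and 16.5, 31.0 and 15.6 FPKM in shZNF148, and did not pass (0.96, adjusted p = 0.0692 from limma). Of the 13 tested targets that did not pass, 8 had higher and 5 had lower means of log2 values in shZNF148. The 8 were IRF1, TNFAIP2 (0.38), LIF (0.28), CD83 (0.19), SDC4 (0.13), CSF2 (0.09), BCL2L1 (0.07) and IER3 (0.01), of which the groups of IRF1 and TNFAIP2 did not overlap. The 5 were the chemokine CXCL1 (-0.84), the growth factor CSF3 (-0.74), the caspase regulator CFLAR (-0.56, adjusted p = 0.0510 from limma), the joined row of CXCL2 and CXCL3 (-0.40) and JUNB (-0.27), of which the groups of CXCL1, CFLAR and the joined row did not overlap. Groups did not overlap in 41.0% of all tested rows. CCND1, PLAU, GADD45B and these 13 were named after their values were seen.

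**Figure D4:**
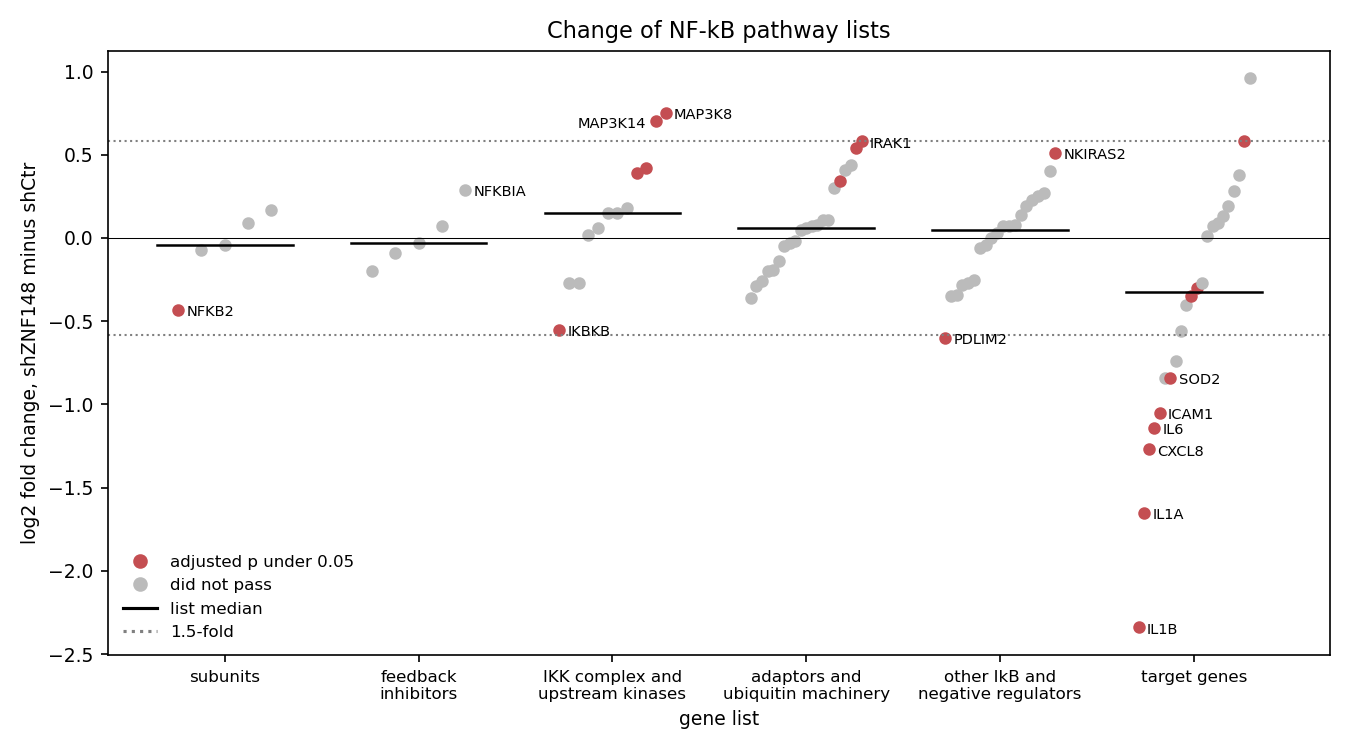
Log2 fold change of shZNF148 against shCtr for each tested row of the 6 NF-κB gene lists, ordered within a list, with rows past an adjusted p of 0.05 in red, a line at each list median and dotted lines at 1.5-fold. Subunits and inhibitors lie between -0.43 and 0.29, MAP3K14 and MAP3K8 lie above the upper dotted line, and the 6 called target genes reach from SOD2 (-0.84) to IL1B (-2.34).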

How the data were processed

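The 6 samples share 1 deposited table in FPKM, and 0 of its per-sample columns went unused. The submitters' processing notes name bcl2fastq 2.17.1.14, TopHat2 2.0.14, Cufflinks 2.2.1 and Cuffnorm 2.2.1 and the builds hg18 and hg19, whereas the study's methods name Salmon and GRCh38. Which of them the authors used for the FPKM values, and how samples were scaled, is not given in the sources used here. Without counts no count test could be run, and the study's DESeq2 test was not repeated.

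Groups came from the sample titles. Nothing says that replicates were separate cultures, so p-values measure the spread between these samples, which may be technical. Rows averaging 1 FPKM or more were fitted on log2(FPKM + 1) with limma 3.58.1 in R 4.3.3 (eBayes with a mean-variance trend, Benjamini-Hochberg over 11777 rows). The pseudocount makes fold changes of low genes too small. Called rows have an adjusted p under 0.05 and changed by more than 1.5-fold. "Rose" and "fell" mark rows past the adjusted p. A gene with several rows is given by the row with the highest mean. Named genes were the members, ZNF148, 15 further listed genes, and up to 5 called genes per list and direction. Others were named after their values were seen, as the text says, and TNF was too. The members and lists were chosen with earlier results of these data known. Promoter windows came from RefSeq. The fit was tested on simulated data. Python 3.11.15 with pandas 2.3.3 and matplotlib 3.10.9 did the remaining steps.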

Additional observations from a re-analysis of the deposited data

How the results depend on the processing

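The count of called member rows was 0 under all 16 settings, while the pass of NFKB2 depended on the setting. With a replicate block (the replicate number as a term), 0 member rows passed the adjusted p (NFKB2 0.0621), 315 rows were called over the table, the called pathway rows numbered 6 in place of 9, and the pathway rows past the adjusted p 8 in place of 19 (0 in place of 5 for the IKK and upstream kinases, 7 in place of 9 for the targets). Under the block ZNF148, IL1A, IL1B, IL6, ICAM1, SOD2, CCND1 and NKIRAS2 passed, CXCL8 did not (0.0619), and IRF1 did (0.0415), so that of the 6 called targets 5 were lower and 1, IRF1, was higher. Whether same-numbered samples were handled together is not stated. Their deviations from the group means correlated at 0.001, -0.088 and 0.030, and not every sample correlated best with its own number. With 3 samples per group, these correlations cannot decide whether the samples were paired. A pseudocount of 5 FPKM left 280 called rows, and 6 called pathway rows, all of them targets. MAP3K14, MAP3K8 and PDLIM2 then passed the adjusted p (0.0227, 0.0207 and 0.0221 from limma) but were no longer called. With each sample left out in turn, the called rows ranged from 29 to 608, member rows past the adjusted p from 0 to 1, called pathway rows from 2 to 13, and the log2 fold change of ZNF148 from -1.74 to -1.45. Fewer samples enter these fits. Signs of members near 0 turned in some of them: NFKB1 ranged from -0.01 to 0.18, RELA from -0.10 to 0.00, RELB from -0.21 to 0.07, NFKBIB from -0.19 to 0.01, NFKBIE from -0.07 to 0.06 and the joined BIRC3 row from -0.01 to 0.22. The sign of the adaptor TRAF3, which is not a member, turned as well (-0.09 to 0.07). Adding the rows of a symbol turned RELB to 0.10. The median of the subunits stayed between -0.09 and 0.09 and that of the inhibitors between -0.07 and 0.02. The other pseudocount (0.1 FPKM), filters, scalings and variance model kept the member counts. With no filter on low values CXCL8, MAP3K3, MYD88, CARD10, PLAU and GADD45B did not pass (0.0501 to 0.0586), nor did PLAU and GADD45B after quantile normalization (0.0810 and 0.0588) or GADD45B without the trend (0.0588). With a minimum mean of 5 FPKM, ZNF148, REL, TNFAIP3, IKBKG and the lower RELB row gave no value. Counting error of low values could not be given, as read numbers are unknown.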
